A study of Mus musculus with 12 samples.

Results

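Genes of prostaglandin and nitric oxide synthesis were followed in osteoblasts that shared medium with osteoclasts: the cyclooxygenase genes Ptgs2 and Ptgs1, the prostaglandin E synthase genes Ptges, Ptges2 and Ptges3, the prostacyclin synthase gene Ptgis, the prostaglandin E2 receptor genes Ptger2 and Ptger4, and the inducible nitric oxide synthase gene Nos2. They were chosen by name, as 9 of 52654 genes counted in every library, around Ptgs2 and Nos2, which earlier results of these libraries had placed among the genes with high co-culture fold changes. The measured values that chose the members are therefore those of co-culture against isolated cells, and for the members these are given as a description, with no test. The cells were MC3T3-E1 subclone 14, a single clone of a mouse calvaria line of preosteoblasts, with 3 biological replicates in each of 4 groups: co-culture on titanium with nanotopography, the same on control titanium, isolated cells on nanotopography and isolated cells on control titanium. For short they are called co-cultured nano, co-cultured control, isolated nano and isolated control cells. All 4 groups were kept for 7 days in a medium that contained L-ascorbic acid at 5 µg/mL and β-glycerophosphate at 7 mM. In the co-cultures, RAW 264.7 cells, a mouse macrophage line, had been treated apart for 5 days with 50 ng/mL of RANKL, the cytokine that drives osteoclast formation, and then hung above the osteoblasts for 2 days, in inserts whose pores measured 0.4 µm. No group had RANKL or an insert without RAW 264.7 cells, so effects of the osteoclasts, of RANKL and of the insert cannot be told apart.

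Prostaglandins are made from arachidonate, which phospholipases free from membranes. Cyclooxygenases turn it into prostaglandin H2, and terminal synthases turn that into prostaglandin E2, prostacyclin and other prostanoids, which act through receptors on the cell surface. In bone, prostaglandin E2 made by osteoblasts is known to promote both bone formation and, through RANKL, osteoclast formation. Ptgs1 is the constitutive and Ptgs2 the inducible cyclooxygenase gene. Nos2 makes nitric oxide from arginine when it is induced, classically by inflammatory cytokines.

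The 12 libraries held 5866842 to 9207831 counts over the genes used, and 13340 genes passed the low-count filter and were tested. A gene is said to pass the threshold, or to be called, at an adjusted p under 0.05 over all tested genes in edgeR. All 11 osteoblast markers had counts in each group. Of 21 macrophage and osteoclast markers, 20 had counts in co-cultured nano cells, 16 in co-cultured control cells, 12 in isolated nano cells and 11 in isolated control cells. Their summed level was 197 to 260 CPM (counts scaled to the library total), 194 to 208, 182 to 207 and 190 to 198 CPM in the same order of groups, most of it from Ctsk. Ptprc, the pan-leukocyte gene, had 44 counts in the 3 libraries of co-cultured nano cells, 2 in co-cultured control cells, 0 in isolated nano cells and 0 in isolated control cells. The co-cultured nanotopography libraries stood apart along a principal component that held 55.4% of the variance and followed the GC content of the genes (Spearman's rho of its loadings with GC content 0.739, across genes). Its scores ran from -74.06 to -44.54 in these libraries and from -11.59 to 6.57 in co-cultured control cells. At the other end lay isolated nano cells, at 26.06 to 54.28, with isolated control cells at 5.55 to 25.83. Between the surfaces in isolated cells, the median log2 difference was -0.57 for genes under 40% GC and 0.28 for those over 60%. Mitochondrial ribosomal RNA took 8.66% to 15.8% of the counts in the 3 libraries of co-cultured nano cells and 6.15% to 6.73% in co-cultured control cells. It took 4.52% to 6.35% in isolated nano cells and 6.7% to 9.8% in isolated control cells. Values described below as GC-adjusted were tested after the trend of each library's counts with the GC content and the length of transcripts had been taken out.

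Per kb of exonic length, Ptgs2 had the highest level of the members in both co-cultures, and in isolated cells it ranked 4 of 9 on nanotopography and 3 of 9 on control titanium. It is encoded on chromosome 1 (chr1:150100031-150108227, plus strand, GRCm38), and 40.02% of its transcript bases were G or C, the lowest share among the members. It had 1876, 1658 and 1587 counts in co-cultured nano cells, 1910, 1269 and 1204 in co-cultured control cells, 181, 215 and 171 in isolated nano cells, and 327, 334 and 210 in isolated control cells. Every co-culture library lay above every isolated library. As levels these were 239.5 ± 27.7, 188.4 ± 15.8, 30.4 ± 1.27 and 39.0 ± 3.67 CPM in the same order of groups (SD, n = 3 each). The log2 difference between co-culture and isolated cells was 2.98 ± 0.12 on nanotopography, which was 2.12 ± 0.09 GC-adjusted, and 2.27 ± 0.12 on control titanium, which was 2.42 ± 0.09 GC-adjusted (± SE). Thus Ptgs2 was 7.87-fold higher in co-culture than in isolated cells on nanotopography and 4.83-fold higher on control titanium. Of the 21 macrophage and osteoclast markers, 18 had a higher mean level in co-culture on nanotopography. A lower mean was seen for 2, and 1 had 0 counts in both groups. On control titanium the numbers were 13, 3 and 5. Of the 8 markers tested, 5 were called higher and 1 lower on nanotopography, where 59.2% of all tested genes were called. On control titanium 0 of the 8 were called, where 19.7% of all tested genes were. The part of these cells in the Ptgs2 values was not tested.

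Ptgs1 moved the other way. It lies on chromosome 2 (chr2:36230426-36252272, plus strand). Its counts were 209, 330 and 197 in co-cultured nano cells, 392, 313 and 316 in co-cultured control cells, 312, 374 and 326 in isolated nano cells, and 414, 532 and 381 in isolated control cells. In CPM, which correct for library size, the co-culture libraries lay below the isolated ones on both surfaces, at 29.7 to 42.0 against 52.6 to 55.5 CPM on nanotopography and at 42.4 to 47.6 against 54.0 to 64.1 CPM on control titanium. The log2 difference was -0.68 ± 0.13 on nanotopography, -0.44 ± 0.11 GC-adjusted, and -0.43 ± 0.13 on control titanium. On control titanium it ran from -0.50 to -0.37 as each library was left out.

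Counted per kb of exonic length, so that genes can be set side by side, Ptgs2 made up most of the cyclooxygenase mRNA in co-culture and the minority in isolated cells. Its share of the CPM per kb of both genes was 88.4%, 81.0% and 87.2% in co-cultured nano cells, 80.5%, 77.5% and 76.4% in co-cultured control cells, 33.0%, 32.8% and 30.8% in isolated nano cells, and 40.1%, 34.7% and 31.9% in isolated control cells. The libraries of co-culture and of isolated cells did not overlap. The co-culture groups did not overlap either, with means of 85.5% ± 3.98 on nanotopography and 78.1% ± 2.15 on control titanium, whereas the isolated groups did, with 32.2% ± 1.21 on nanotopography and 35.6% ± 4.19 on control titanium. The genes differ in GC content, at 40.02% for Ptgs2 and 51.0% for Ptgs1, and the shares were not GC-adjusted. Between the co-cultures the log2 difference, nanotopography against control titanium, was 0.35 for Ptgs2 and -0.39 for Ptgs1. GC-adjusted it was -0.21 and -0.19, so the genes no longer moved apart there. The part of the libraries' GC trend in these shares was not tested.

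**Figure D1:**
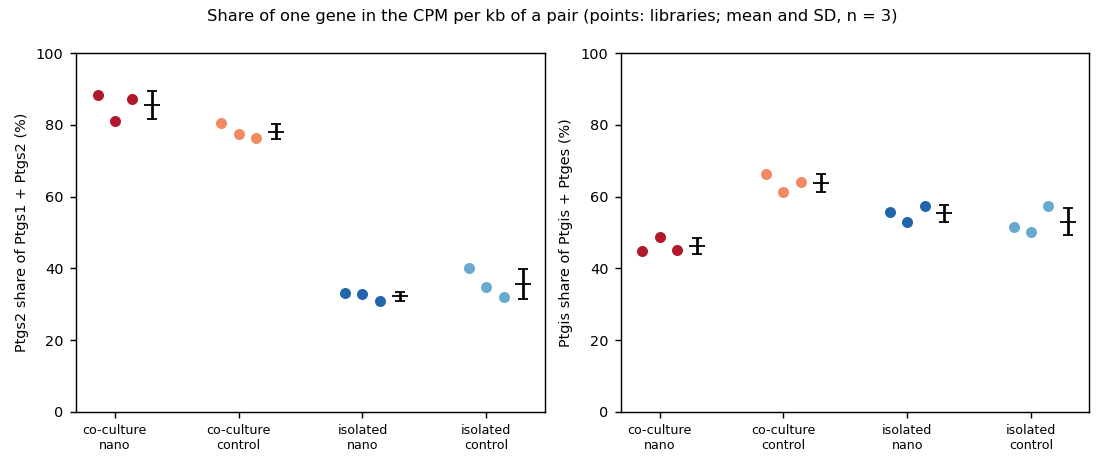
Share of Ptgs2 in the summed CPM per kb of Ptgs1 and Ptgs2 (left) and of Ptgis in that of Ptgis and Ptges (right), in percent; each point is a library and the bars show the mean and SD (n = 3). The Ptgs2 share was 76.4% to 88.4% in the 6 co-culture libraries and 30.8% to 40.1% in the 6 isolated libraries. The Ptgis share separated the co-culture groups from each other. Neither share was GC-adjusted.

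The sequences upstream of the cyclooxygenase genes are shown because this pair, which catalyses the same reaction, moved in opposite directions. Each covers the 250 bases before the annotated RefSeq start (GRCm38.p6, plus strand, chr1:150099781-150100030 for Ptgs2 and chr2:36230176-36230425 for Ptgs1), and capitals mark motif matches.
Ptgs2: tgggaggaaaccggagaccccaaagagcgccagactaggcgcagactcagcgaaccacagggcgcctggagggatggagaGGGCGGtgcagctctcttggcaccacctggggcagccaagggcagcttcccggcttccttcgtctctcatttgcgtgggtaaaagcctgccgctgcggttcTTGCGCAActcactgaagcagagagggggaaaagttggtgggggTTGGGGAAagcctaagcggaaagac
Ptgs1: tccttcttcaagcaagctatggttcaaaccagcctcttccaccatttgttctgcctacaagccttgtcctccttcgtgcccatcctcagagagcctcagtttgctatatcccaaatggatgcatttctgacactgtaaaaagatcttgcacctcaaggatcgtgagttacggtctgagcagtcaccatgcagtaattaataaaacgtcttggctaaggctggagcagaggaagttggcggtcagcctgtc
The Ptgs2 window had 61.6% G or C and 13 CG dinucleotides, and the Ptgs1 window had 48.0% and 5. The motifs searched, on both strands, from 250 bases before to 50 after the start, were the TATA box TATAAA, the CRE core TGACG, the C/EBP motif TTNNGNAA, the E-box CACGTG, the GC box GGGCGG, the AP-1 motif TGANTCA and the NF-kB motif. Ptgs2 had C/EBP matches at 69 to 62 and at 25 to 18 bases before the start and a GC box at 170 to 165 bases before it. After the start, it had a CRE core at bases 14 to 18 and an E-box at bases 17 to 22, which overlap. C/EBP factors, CREB and the E-box binding USF factors are known regulators of Ptgs2. Ptgs1 matched none of the motifs, which says only that these letters are not in its window. Such matches are common: among 32544 mouse promoter windows of the same length, 40.7% held the C/EBP motif, 35.9% the GC box, 20.9% the CRE core, 13.6% the TATA box, 7.79% the AP-1 motif, 7.17% the E-box and 4.53% the NF-kB motif. RefSeq promoter entries were matched for 7 of the 9 members, all but Nos2 and Ptgis.

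**Figure D2:**
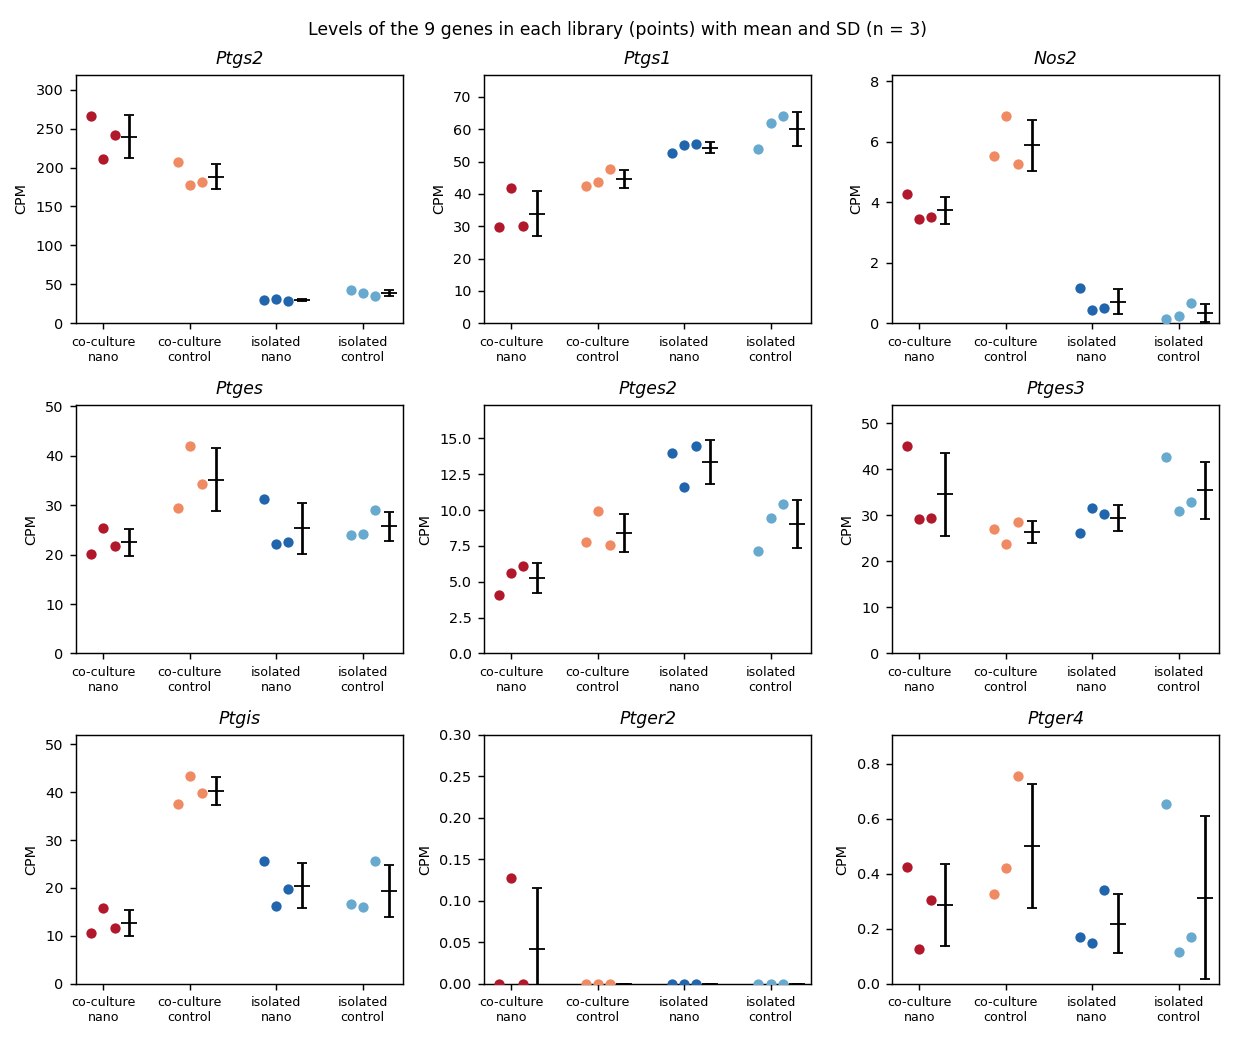
Level of each of the 9 genes in CPM (TMM-scaled totals) in every library; points are libraries, bars are the mean and SD of each group (n = 3), and each panel has its own axis from 0. Ptgs2 lay at 177 to 266 CPM in the co-culture libraries and at 29.1 to 42.7 CPM in the isolated ones, and Ptgis was highest in co-culture on control titanium.

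Among the terminal synthases, the genes did not move together. Ptgis (chr2:167191805-167240604, minus strand), which turns prostaglandin H2 into prostacyclin, had 75, 124 and 77 counts in co-cultured nano cells, 348, 310 and 265 in co-cultured control cells, 152, 110 and 116 in isolated nano cells, and 127, 137 and 152 in isolated control cells. Co-culture on control titanium was the only group whose 3 libraries lay above those of all other groups. The means were 12.7 ± 2.71, 40.3 ± 2.87, 20.5 ± 4.76 and 19.4 ± 5.38 CPM in the same order (SD, n = 3 each). On control titanium Ptgis was higher in co-culture by 1.07 ± 0.19 on the log2 scale, or 2.10-fold. On nanotopography the log2 difference was -0.68 ± 0.21, but GC-adjusted it was 0.14 ± 0.16, so its direction there depended on the adjustment. It ran from -0.85 to -0.49 as each library was left out. Of the exonic length of Ptgis, 6.08% is shared with the antisense gene 1110018N20Rik, which had 0 to 5 counts in each library.

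Ptges (chr2:30889471-30929863, minus strand), the microsomal and inducible prostaglandin E synthase gene that is often induced together with Ptgs2, had 142, 200 and 143 counts in co-cultured nano cells, 272, 300 and 227 in co-cultured control cells, 186, 150 and 132 in isolated nano cells, and 183, 208 and 173 in isolated control cells. The levels were 22.4 ± 2.72, 35.2 ± 6.32, 25.3 ± 5.24 and 25.7 ± 2.92 CPM in the same order (SD, n = 3 each). On control titanium the co-culture libraries, at 29.4 to 41.9 CPM, lay just above the isolated libraries, at 23.9 to 29.1 CPM, with a log2 difference of 0.45 ± 0.16, which was 0.35 ± 0.13 GC-adjusted. On nanotopography the libraries overlapped, at -0.17 ± 0.17, and the GC-adjusted value of 0.25 had the opposite sign.

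Ptges2 (chr2:32395896-32405772, plus strand), the Golgi-bound synthase gene, averaged 5.27 ± 1.03 CPM in co-cultured nano cells, 8.41 ± 1.31 in co-cultured control cells, 13.4 ± 1.52 in isolated nano cells and 9.02 ± 1.67 in isolated control cells (SD, n = 3 each). On nanotopography its counts were 29, 44 and 40 in co-culture against 83, 79 and 85 in isolated cells, which did not overlap. The log2 difference between co-culture and isolated cells was -1.34 ± 0.21 on nanotopography, -0.85 ± 0.18 GC-adjusted, and -0.09 ± 0.20 on control titanium.

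Ptges3 (chr10:128058954-128077272, plus strand), which encodes the Hsp90 co-chaperone p23 with a cytosolic prostaglandin E synthase activity, averaged 34.5 ± 9.05 CPM in co-cultured nano cells, 26.4 ± 2.404 in co-cultured control cells, 29.3 ± 2.82 in isolated nano cells and 35.4 ± 6.24 in isolated control cells (SD, n = 3 each). The log2 difference between co-culture and isolated cells was 0.24 ± 0.17 on nanotopography, where the GC-adjusted value of -0.25 had the opposite sign, and -0.43 ± 0.17 on control titanium. The highest values were 44.98 CPM in library 1 of co-culture on nanotopography and 42.5 CPM in library 1 of isolated cells on control titanium, which also had the highest mitochondrial ribosomal RNA share of their groups, at 15.8% and 9.8%; the part of RNA composition in the values was not tested. The counts of Ptges3 are uncertain because the processed pseudogene Ptges3-ps held more reads than the gene itself, with sums of 1961, 1547, 993 and 1261 counts in the 4 groups against 740, 608, 547 and 786 for Ptges3, in the same order.

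The balance between the prostacyclin and the inducible prostaglandin E synthase genes differed between the co-cultures. Ptgis made up 46.2% ± 2.18 of the summed CPM per kb of Ptgis and Ptges in co-cultured nano cells and 63.9% ± 2.48 in co-cultured control cells, against 55.3% ± 2.25 in isolated nano cells and 53.0% ± 3.81 in isolated control cells (SD, n = 3 each). The co-culture groups lay on either side of the isolated ones, at 44.7% to 48.7% on nanotopography and 61.3% to 66.2% on control titanium. These genes are close in GC content, at 56.6% for Ptgis and 53.1% for Ptges, but their values still changed with the GC adjustment. On nanotopography the log2 difference between co-culture and isolated cells was -0.68 for Ptgis and -0.17 for Ptges. GC-adjusted these were 0.14 and 0.25. Between the co-cultures the differences were -1.66 and -0.64, and GC-adjusted -1.04 and -0.30. The shares were not GC-adjusted, and the part of the GC trend in them was not tested.

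The receptor genes were near the limit of detection. Ptger2 (chr14:44988195-45003820, plus strand), which encodes the EP2 receptor that raises cAMP, had 1 count in all, in library 2 of co-culture on nanotopography. Its 0 counts in the other groups allow up to 0.130 CPM in co-cultured control cells, 0.161 in isolated nano cells and 0.135 in isolated control cells (3 counts over each group's total, for counting error only). Ptger4 (chr15:5206661-5244187, minus strand), which encodes the EP4 receptor of the same signalling type, had 3, 1 and 2 counts in co-cultured nano cells, 3, 3 and 5 in co-cultured control cells, 1, 1 and 2 in isolated nano cells, and 5, 1 and 1 in isolated control cells. Co-culture and isolated libraries overlapped on each surface, and a difference between them was not detectable at this depth. Neither gene passed the low-count filter. How strand was handled in counting is not given in the sources used here. Ptger2 shares 4.74% of its exonic length with the antisense gene Gm17173, which had 33, 20, 3 and 2 counts in the groups of co-culture on nanotopography, co-culture on control titanium, isolated on nanotopography and isolated on control titanium. Ptger4 shares 15.3% with the pseudogene Gm15937 on the opposite strand, which had 60, 41, 28 and 29 counts in the same order. Reads from the shared bases cannot be assigned without strand.

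Nos2 (chr11:78920787-78960254, plus strand) was nearly absent from isolated cells. It had 30, 27 and 23 counts in co-cultured nano cells, 51, 49 and 35 in co-cultured control cells, 7, 3 and 3 in isolated nano cells, and 1, 2 and 4 in isolated control cells. Every co-culture library lay above every isolated library. The means were 3.73 ± 0.46, 5.88 ± 0.85, 0.710 ± 0.408 and 0.346 ± 0.288 CPM in the same order (SD, n = 3 each). The log2 difference between co-culture and isolated cells was 2.38 ± 0.41 on nanotopography, 2.85 ± 0.40 GC-adjusted, and 4.14 ± 0.43 on control titanium. The value on control titanium rests on a sum of 7 counts in the isolated cells, and it ran from 3.76 to 4.88 as each library was left out. Nos2 passed the low-count filter through its co-culture libraries and did not pass it in a fit of the isolated groups alone.

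Nos2 is also a classic gene of activated macrophages, so its counts are set beside those of macrophage and osteoclast genes. Clec5a, a myeloid receptor gene, had 114 counts in co-cultured nano cells, 5 in co-cultured control cells, 0 in isolated nano cells and 0 in isolated control cells, and Atp6v0d2, an osteoclast proton pump gene, had 73, 7, 0 and 0 in the same order. Nos2 had sums of 80, 135, 13 and 7 counts. Laptm5 had 74, 15, 3 and 3 counts and Acp5 had 33, 11, 2 and 2. The markers named so far were picked from the 21, and others ran differently. Cd14 had 55, 42, 19 and 24 counts, and Fcer1g had 29, 1, 12 and 13. Mmp9 had 337, 442, 415 and 419, and Ctsk had 3939, 3944, 3092 and 3767. On control titanium 13 of the 21 markers had a higher mean level in co-culture than in isolated cells and 3 a lower one. The other 5 (Adgre1, Itgam, Cd52, Calcr and Oscar) had 0 counts in both groups. Of the 8 markers tested, 0 were called there, where 19.7% of all tested genes were. The part of these cells in the Nos2 values was not tested. In these bulk samples, a change in the number of cells of a type and in the RNA per cell cannot be told apart.

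Counted over the members, 5 of the 7 tested were called in co-culture against isolated cells on nanotopography, 2 higher and 3 lower, where 59.2% of all tested genes did. On control titanium 4 of 7 were called, 3 higher (Ptgs2, Ptgis and Nos2) and 1 lower (Ptgs1), where 19.7% of all tested genes did. Since the members were chosen on these comparisons, nothing is read from these counts.

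**Figure D3:**
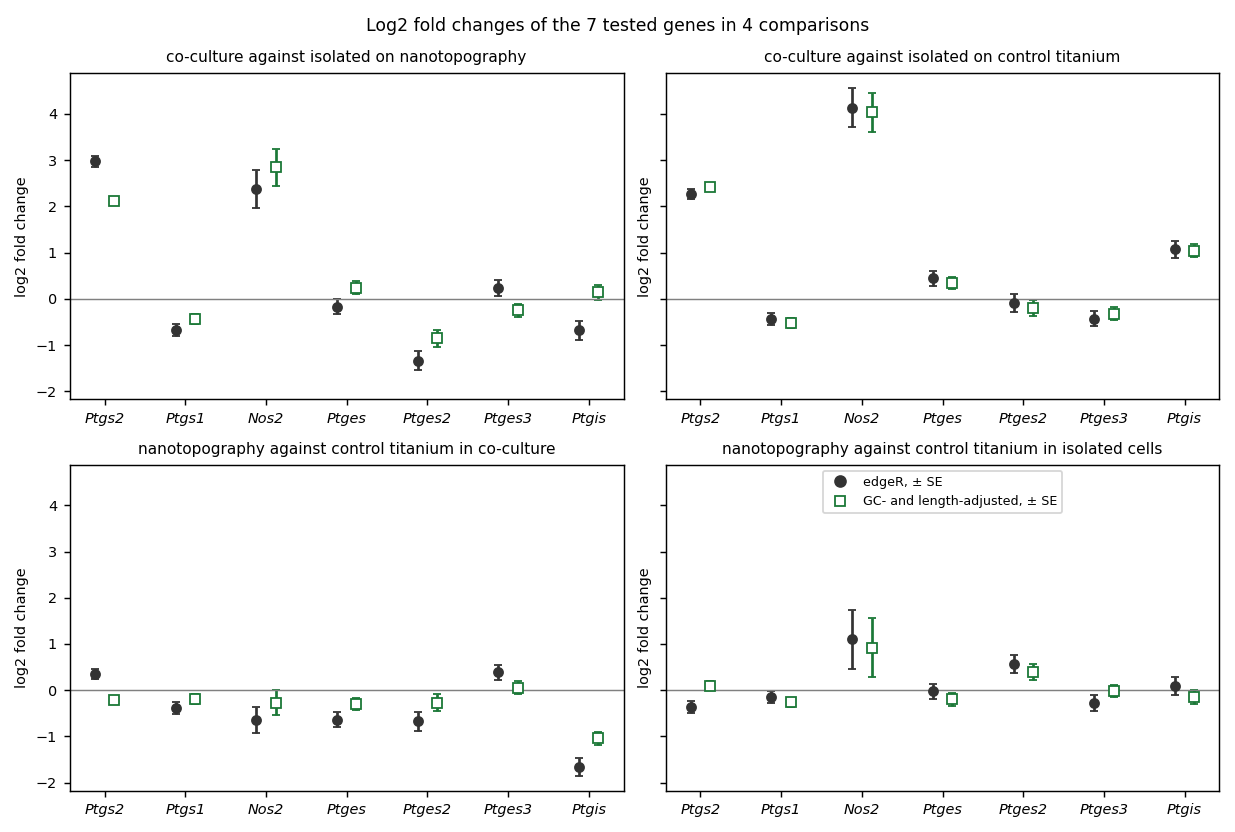
Log2 fold change with its SE for the 7 tested members in 4 comparisons, from edgeR (filled circles) and after the trend with GC content and length had been taken out (open squares). Ptgs2 and Nos2 lay well above 0 in both co-culture comparisons, and Ptgis on nanotopography against control titanium in co-culture lay below 0 with both methods, at -1.66 and -1.04.

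Per length, the order of the members differed between co-culture and isolated cells. In co-culture on nanotopography, Ptgs2 led at 52.3 ± 6.04 CPM per kb, followed by Ptges3 at 15.6 ± 4.08, Ptgs1 at 8.72 ± 1.81, Ptges at 5.71 ± 0.69 and Ptgis at 4.95 ± 1.05. In co-culture on control titanium, Ptgs2 led at 41.1 ± 3.45 CPM per kb, followed by Ptgis at 15.7 ± 1.12, Ptges3 at 11.9 ± 1.08, Ptgs1 at 11.5 ± 0.70 and Ptges at 8.95 ± 1.61. The neighbours whose libraries overlapped were Ptges and Ptgis as well as Ptger4 and Ptger2 in co-culture on nanotopography, Ptges3 and Ptgs1 in co-culture on control titanium, and Ptges2 and Nos2 in both. In isolated cells on nanotopography, Ptgs1 at 14.0 ± 0.40 and Ptges3 at 13.2 ± 1.27 CPM per kb led and overlapped, and Ptgis at 7.99 ± 1.85, Ptgs2 at 6.64 ± 0.28 and Ptges at 6.43 ± 1.33 overlapped in turn. In isolated cells on control titanium, Ptges3 at 16.0 ± 2.81 and Ptgs1 at 15.5 ± 1.37 CPM per kb led and overlapped, and Ptgs2 at 8.51 ± 0.80, Ptgis at 7.55 ± 2.10 and Ptges at 6.55 ± 0.74 again ran into each other, as did Nos2 and Ptger4 at the low end. Ptges2 followed in every group, at 1.04 to 2.64 CPM per kb, above Nos2, Ptger4 and Ptger2.

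Whether the surface mattered was asked in each culture. In isolated cells 0 of 7 tested members passed edgeR's threshold between nanotopography and control titanium, where 9.71% of all tested genes did. Nos2 counts among the 7 only through its co-culture libraries, and its few counts in isolated cells cannot decide on a difference there. DESeq2 and limma-voom also called 0, and 2 members had an unadjusted p under 0.05. These were Ptgs2, at 30.4 ± 1.27 CPM on nanotopography against 39.0 ± 3.67 on control titanium, a log2 difference of -0.36 ± 0.12 (adjusted p = 0.065), and Ptges2, at 13.4 ± 1.52 against 9.02 ± 1.67 CPM, a difference of 0.57 ± 0.19 (adjusted p = 0.0646). The libraries of neither gene overlapped between the surfaces. Both passed the threshold without library 3 of isolated control cells, without library 2 of isolated nano cells, or without library 1 of co-cultured nano cells, which enters the fit through the shared spread, and Ptgs2 also without library 2 of that co-culture. The GC adjustment brought Ptgs2 to 0.10 ± 0.10.

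In co-culture, Ptgis was lower on nanotopography than on control titanium. Its log2 difference was -1.66 ± 0.20 (adjusted p = 2.82e-05), and the GC-adjusted difference of -1.04 ± 0.15 also passed the threshold (adjusted p = 0.000127). It kept its call under each alternative tried. Ptgis was at 10.6, 15.8 and 11.7 CPM in co-culture on nanotopography, against 37.6, 43.3 and 39.9 CPM in co-culture on control titanium, with no overlap. In all, 5 of 7 tested members passed the threshold, 1 higher and 4 lower, where 42% of all tested genes did. After the GC adjustment 1 of 7 did, Ptgis, where 17.9% of all tested genes did.

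The other 4 calls between the co-cultures depended on the adjustment. Ptges fell to 22.4 ± 2.72 CPM on nanotopography, against 35.2 ± 6.32 on control titanium, a log2 difference of -0.64 ± 0.16 (adjusted p = 0.00593), which was -0.30 ± 0.13 GC-adjusted (adjusted p = 0.111). Ptges2 fell by 0.67 ± 0.21 on the log2 scale (adjusted p = 0.0185) and differed by -0.27 ± 0.19 GC-adjusted (adjusted p = 0.346). Ptgs1 fell by 0.39 ± 0.13 (adjusted p = 0.0265) and differed by -0.19 ± 0.11 GC-adjusted (adjusted p = 0.243). Ptgs2 rose by 0.35 ± 0.11 (adjusted p = 0.018), but its GC-adjusted difference was -0.21 ± 0.08 (adjusted p = 0.0799), so its direction turned. Without library 2 of co-culture on control titanium or library 1 of co-culture on nanotopography, Ptgs2, Ptgs1 and Ptges2 did not pass the threshold. Ptgs2 and Ptgs1 also did not without library 3 of co-culture on control titanium, nor Ptgs1 without library 3 of co-culture on nanotopography. Nos2 was at 3.73 ± 0.46 CPM on nanotopography against 5.88 ± 0.85 on control titanium, a difference of -0.65 ± 0.28, and the 3 and 3 libraries did not overlap. It had passed the low-count filter through these co-culture libraries, so the difference is given as a description without a p. Among the 7 it was not called with edgeR, while limma-voom and the fit of only the groups compared did call it.

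The interaction asks whether the difference between co-culture and isolated cells was itself different on nanotopography. For Ptgis this difference was 1.75 ± 0.28 lower on the log2 scale on nanotopography than on control titanium, as an interaction of -1.75 (adjusted p = 0.000254), and the GC-adjusted interaction of -0.90 ± 0.21 also passed the threshold (adjusted p = 0.00587). Ptgs2 and Nos2 had been chosen on the fold changes that enter it, so their interactions are given as values without a p. In all, 6 of 7 tested members were called, Ptgs2 and Nos2 included, where 47.8% of all tested genes were. After the GC adjustment 1 of 7 was called, where 20.5% of all tested genes were. The other members were chosen by name around Ptgs2 and Nos2 with earlier results known, so their p-values are no independent test. Nothing is read from the counts of members. For Ptges2 the interaction was -1.24 ± 0.29 (adjusted p = 0.00235), and GC-adjusted it was -0.66 ± 0.25 (adjusted p = 0.0679). For Ptgs2 it was 0.70 ± 0.16, but GC-adjusted it was -0.30 ± 0.13. For Nos2, which had passed the low-count filter through its co-culture libraries, it was -1.75 ± 0.69, GC-adjusted -1.19 ± 0.70, and it ran from -2.48 without library 3 of the isolated control cells to -1.21 without library 1 of the isolated nano cells. The Nos2 call was kept in only 2 of 12 fits that left out a library and in 4 of 10 other settings. For Ptges it was -0.62 ± 0.23 (adjusted p = 0.0376) and for Ptges3 0.66 ± 0.24 (adjusted p = 0.0316), which were -0.11 ± 0.19 and 0.07 ± 0.19 GC-adjusted. Ptges lost its call without library 2 or 3 of the co-cultured control cells, 1 or 3 of the co-cultured nano cells, 1 or 2 of the isolated control cells or 1 of the isolated nano cells. Ptges3 lost its call without library 2 of the co-cultured control cells, 1 of the co-cultured nano cells, 1 of the isolated control cells or 1 or 3 of the isolated nano cells. Co-culture libraries enter these comparisons in common, so the values of a gene in them are not independent.

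The other genes of the pathways were taken from lists drawn up by function, with earlier results of these libraries known. For release of arachidonate, Pla2g4a, the cytosolic phospholipase A2 gene that feeds the cyclooxygenases, rose in co-culture on both surfaces. It stood at 117 ± 20.3 CPM in co-cultured nano cells, 82.9 ± 3.35 in co-cultured control cells, 44.9 ± 7.02 in isolated nano cells and 58.0 ± 7.41 in isolated control cells (SD, n = 3 each). The log2 changes were 1.38 ± 0.14 on nanotopography (adjusted p = 6.24e-07), 0.94 ± 0.10 GC-adjusted, and 0.51 ± 0.14 on control titanium (adjusted p = 0.0148). On nanotopography 2 of 5 tested genes of the list rose and 2 fell, with a median of -0.34. On control titanium 1 of 5 rose and the median was 0.34. The medians over all tested genes were -0.0024 on nanotopography and -0.016 on control titanium. Of all tested genes, 59.2% were called on nanotopography and 19.7% on control titanium. Plaa, the phospholipase A2 activating protein gene, rose by 0.67 ± 0.14 on nanotopography (adjusted p = 0.000494) but was at -0.38 ± 0.11 GC-adjusted. Pla2g6, a calcium-independent phospholipase gene, fell by 1.47 ± 0.27 (adjusted p = 0.000186), and the GC-adjusted value of -0.53 ± 0.22 did not pass the threshold. Daglb, a diacylglycerol lipase gene, fell by 0.61 ± 0.20 (adjusted p = 0.0127), with -0.58 ± 0.18 GC-adjusted.

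Of the other prostanoid synthase genes, the 2 that could be tested fell in co-culture on nanotopography, where 59.2% of all tested genes were called. Tbxas1, thromboxane synthase, fell by 1.16 ± 0.33 (adjusted p = 0.00624), and Akr1b3, an aldo-keto reductase known to make prostaglandin F2α, fell by 0.76 ± 0.21 (adjusted p = 0.00438). On control titanium, where 19.7% of all tested genes were called, neither passed the threshold with edgeR, DESeq2 or limma-voom. Both had an unadjusted p under 0.05, and the values were -0.64 ± 0.29 and -0.53 ± 0.21. GC-adjusted, Akr1b3 passed there, at -0.59 ± 0.20 (adjusted p = 0.0334), where 26.9% of all tested genes did. Hpgds, a prostaglandin D synthase gene, had 5, 0, 0 and 3 counts in co-cultured nano, co-cultured control, isolated nano and isolated control cells and was not tested. Of 6 tested genes of prostaglandin transport and breakdown, Abcc4, the efflux transporter of prostaglandin E2, fell by 0.78 ± 0.14 on nanotopography (adjusted p = 0.000201). On control titanium 0 of 6 passed with edgeR, DESeq2 or limma-voom, with 0 at an unadjusted p under 0.05 and values between -0.48 and -0.17. GC-adjusted, Abcc4 passed there, at -0.37 ± 0.13 (adjusted p = 0.0369). Ptgds and Hpgd had 0 counts in every library.

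Among the other receptor genes, Ptgfr, the prostaglandin F receptor, had the highest counts of a signalling receptor. It stood at 130 ± 16.5 CPM in co-cultured nano cells, 76.2 ± 12.3 in co-cultured control cells, 102 ± 20.5 in isolated nano cells and 128 ± 14.1 in isolated control cells (SD, n = 3 each). On control titanium it fell by 0.75 ± 0.15 in co-culture (adjusted p = 0.00218). On nanotopography its value of 0.34 ± 0.15 did not pass the threshold (adjusted p = 0.0585), while the GC-adjusted value was -0.56, which did. Ptgfrn, whose product inhibits the prostaglandin F receptor, fell by 0.59 ± 0.10 on nanotopography (adjusted p = 6.76e-05), -0.18 ± 0.08 GC-adjusted and no longer called, and by 0.39 ± 0.10 on control titanium (adjusted p = 0.00805). Ptger1, the EP1 receptor gene, fell by 0.92 ± 0.22 on nanotopography (adjusted p = 0.00209), but its GC-adjusted value was -0.0019 ± 0.19. Its value on control titanium was -0.50 ± 0.21 (adjusted p = 0.105), and the GC-adjusted value of -0.52 ± 0.18 passed the threshold (adjusted p = 0.0362). Ptger3 and Ptgdr had 0 counts in every library. In all, 2 of the 3 tested genes of this list fell on each surface, with medians of -0.59 on nanotopography and -0.50 on control titanium. On each surface 1 of the 2 was Ptgfrn, whose product acts on a receptor. The receptor gene that fell was Ptger1 on nanotopography, with its call lost GC-adjusted, and Ptgfr on control titanium. The shares of all tested genes called were 59.2% on nanotopography and 19.7% on control titanium.

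Of 8 tested genes known to respond to cAMP, the second messenger of the EP2 and EP4 receptors, 2 rose and 1 fell on nanotopography, and 4 rose and 1 fell on control titanium. The medians were 0.45 on nanotopography and 0.41 on control titanium. Among all tested genes, 59.2% were called on nanotopography and 19.7% on control titanium. On control titanium Nr4a1, an orphan nuclear receptor gene, rose by 1.30 ± 0.18 (adjusted p = 7.7e-05), Per1, a clock gene, by 0.91 ± 0.17 (adjusted p = 0.00159), Sik1, a salt-inducible kinase gene, by 0.92 ± 0.18 (adjusted p = 0.00194) and Nr4a3 by 0.89 ± 0.20 (adjusted p = 0.00508). The gene that fell there was Nr4a2, by 0.65 ± 0.20 (adjusted p = 0.0283), named after its value was seen. On nanotopography Nr4a1 rose by 0.52 ± 0.20 (adjusted p = 0.0325), 1.35 ± 0.17 GC-adjusted, and Sik1 by 0.58 ± 0.20 (adjusted p = 0.0178). Per1 fell there by 0.63 ± 0.19 (adjusted p = 0.00908), but its GC-adjusted value was 0.37 ± 0.14, so its direction turned.

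For nitric oxide, 5 of 6 tested genes of arginine supply and use rose in co-culture on control titanium, where 19.7% of all tested genes were called, with a list median of 0.80. The other was Slc7a2, an arginine transporter gene, at 0.12 ± 0.14 (adjusted p = 0.579). Ass1, argininosuccinate synthase, which rebuilds arginine from citrulline, stood at 10.6 ± 2.33 CPM in co-culture against 4.59 ± 0.18 in isolated cells there (SD, n = 3 each), a rise of 1.21 ± 0.23 (adjusted p = 0.00156). Ddah2 and Ddah1, whose products clear asymmetric dimethylarginine, an inhibitor of nitric oxide synthases, rose by 1.12 ± 0.21 (adjusted p = 0.00121) and 0.66 ± 0.14 (adjusted p = 0.00282), and the arginine transporter gene Slc7a1 rose by 0.50 ± 0.10 (adjusted p = 0.00224). On nanotopography 3 rose and 1 fell, with a median of 0.36, where 59.2% of all tested genes were called. There Slc7a2 rose by 1.19 ± 0.15 (adjusted p = 5.6e-06), 0.53 ± 0.10 GC-adjusted, Ddah1 by 0.43 ± 0.15 (adjusted p = 0.018) and Slc7a1 by 0.29 ± 0.10 (adjusted p = 0.02). Ddah2 fell there by 0.88 ± 0.23 (adjusted p = 0.00344), but its GC-adjusted value of 0.28 ± 0.17 had the opposite sign. Arg1 and Arg2, the arginase genes that compete for arginine, had 0 to 2 counts in each group.

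The cofactor of nitric oxide synthases is tetrahydrobiopterin. Gch1, the gene for the enzyme that limits its synthesis, had 3 counts in co-culture on control titanium and 0 in each of the other groups. Of 5 tested genes of the cofactor's synthesis or recycling, 3 fell in co-culture on nanotopography, where 59.2% of all tested genes were called. Of these Spr, sepiapterin reductase, fell by 1.33 ± 0.19 (adjusted p = 2.14e-05) and by 1.03 ± 0.17 GC-adjusted, whereas Qdpr, which recycles the cofactor, fell by 0.56 ± 0.16 (adjusted p = 0.00588) and Gchfr, the feedback regulator of Gch1, by 2.32 ± 0.76 (adjusted p = 0.0144), both of which lost their call GC-adjusted. The Gchfr value rests on 6 counts in co-cultured nano cells, at 0 to 0.763 CPM, and 27 in isolated nano cells. On control titanium, where 19.7% of all tested genes were called, 0 of 5 passed with edgeR, DESeq2 or limma-voom, and 1 had an unadjusted p under 0.05. The other nitric oxide synthase genes had few counts, with 6, 1, 0 and 0 for Nos1 and 6, 15, 7 and 8 for Nos3 in co-culture on nanotopography, co-culture on control titanium, isolated on nanotopography and isolated on control titanium. Nosip, whose product binds nitric oxide synthases, fell by 1.04 ± 0.20 in co-culture on nanotopography (adjusted p = 0.000264), with -0.17 ± 0.15 GC-adjusted. Both tested genes of cGMP-dependent kinases, which act downstream of nitric oxide, rose there: Prkg2 by 1.29 ± 0.25 (adjusted p = 0.000346), 0.97 ± 0.22 GC-adjusted, and Prkg1 by 0.76 ± 0.26 (adjusted p = 0.0167), -0.06 ± 0.23 GC-adjusted. On control titanium they were at -0.59 ± 0.25 and -0.60 ± 0.25, both with an unadjusted p under 0.05, and neither was called with edgeR, DESeq2 or limma-voom. GC-adjusted, Prkg2 passed the threshold there, at -0.61 ± 0.22 (adjusted p = 0.0477).

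**Figure D4:**
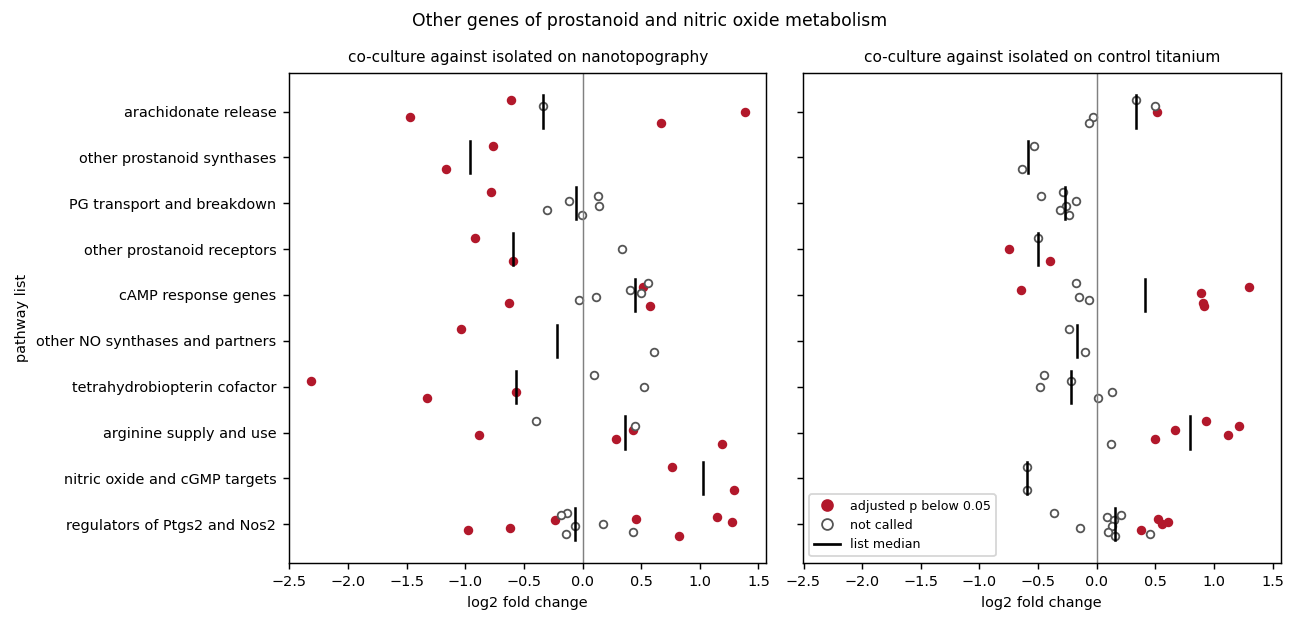
Log2 fold change of each tested gene of 10 pathway lists in co-culture against isolated cells, on nanotopography (left) and on control titanium (right); filled points passed an adjusted p of 0.05, open points did not, and black bars are list medians. On control titanium the arginine list had its median at 0.80 with 5 of 6 genes called. On nanotopography called genes lay on both sides of 0 in 4 of the 10 lists. Of all tested genes, 19.7% were called on control titanium and 59.2% on nanotopography.

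Among 13 known regulators of Ptgs2 and Nos2 transcription or mRNA stability, 4 rose and 3 fell in co-culture on nanotopography, with a median of -0.065. On control titanium 4 rose, with a median of 0.16. The shares of all tested genes called were 59.2% and 19.7% in the same order. Hif1a, the hypoxia-inducible factor gene, rose on both surfaces, by 1.27 ± 0.12 on nanotopography (adjusted p = 2.69e-07), 0.52 ± 0.09 GC-adjusted, and by 0.61 ± 0.12 on control titanium (adjusted p = 0.00163). Rela, the NF-kB p65 subunit gene, fell by 0.98 ± 0.13 on nanotopography (adjusted p = 1.15e-05), where its GC-adjusted value was 0.12 ± 0.11, and rose by 0.38 ± 0.13 on control titanium (adjusted p = 0.0429). Egr1, an immediate-early transcription factor gene, and Irf1, an interferon regulatory factor gene, rose on control titanium by 0.53 ± 0.15 (adjusted p = 0.0231) and 0.56 ± 0.19 (adjusted p = 0.0424). Creb1, the cAMP response element binding factor gene, rose by 1.15 ± 0.14 on nanotopography (adjusted p = 4.26e-06), but its GC-adjusted value of 0.09 ± 0.10 did not pass the threshold. Zfp36l1, whose product destabilises mRNAs with AU-rich elements, rose by 0.82 ± 0.14 on nanotopography (adjusted p = 0.000114), with 0.85 ± 0.14 GC-adjusted.

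Between the surfaces in isolated cells, 1 of 5 tested cofactor genes, 1 of 6 of the arginine list and 1 of 13 regulators passed the threshold. None did in the other pathway lists, and 9.71% of all tested genes did. Spr rose on nanotopography by 0.69 ± 0.18 (adjusted p = 0.031), and Elavl1, which stabilises Ptgs2 mRNA, rose by 0.37 ± 0.09 (adjusted p = 0.0272). Slc7a2 fell by 0.64 ± 0.15 (adjusted p = 0.0235), and its GC-adjusted value of -0.36 did not pass the threshold (adjusted p = 0.0504). In co-culture the arginine list had 1 of 6 tested genes higher and 4 lower on nanotopography, with a median of -0.48. Of all tested genes, 42% were called in this comparison. GC-adjusted, 0 of the list were higher and 1 was lower, with a median of -0.16, where 17.9% of all tested genes were called. Ddah2 fell there to 7.60 ± 2.84 CPM on nanotopography, against 24.2 ± 4.61 on control titanium (SD, n = 3 each), by 1.65 ± 0.22 on the log2 scale (adjusted p = 5.27e-05) and by 0.83 ± 0.16 GC-adjusted (adjusted p = 0.00153). Per1 fell by 1.33 ± 0.18 (adjusted p = 6.34e-05) and by 0.58 ± 0.13 GC-adjusted, and Nr4a1 by 1.06 ± 0.17 (adjusted p = 0.000298) and by 0.44 ± 0.14 GC-adjusted. Rela fell by 1.14 ± 0.13 (adjusted p = 2.42e-05) and by 0.33 ± 0.11 GC-adjusted. Other list genes rose on nanotopography in co-culture. Prkg2 rose by 1.115 ± 0.241 (adjusted p = 0.00215) and by 0.92 ± 0.21 GC-adjusted (adjusted p = 0.00582). Ptgfr rose by 0.77 ± 0.15 (adjusted p = 0.0011) and Pla2g4a by 0.50 ± 0.13 (adjusted p = 0.00789), and neither was called GC-adjusted. Further genes of the lists were called in either direction.

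The genes whose levels were most like those of Ptgs2 over the 12 libraries were Ddit3 (Pearson's r = 0.996), a stress-induced transcription factor gene, F3 (0.994), the tissue factor gene, Bhlhe41 (0.990), Dusp11 (0.989) and Pawr (0.988), among 9372 protein-coding genes with a mean of at least 5 CPM. Those most like Nos2 were Crabp2 (0.985), Hmox1 (0.981), the heme oxygenase gene, Vmp1 (0.980), Bhlhe40 (0.977) and Ier3 (0.975). Those most like Ptges were Ncf1 (0.927), Gss (0.923), Ptgis (0.914), Snx1 (0.906) and Tgm2 (0.904). These correlations describe log2 CPM over libraries that fall into 4 groups and share the GC trend. Side by side, the log2 difference between co-culture and isolated cells was 2.64 on nanotopography and 2.10 on control titanium for Ddit3, and 2.44 on nanotopography and 3.27 on control titanium for Hmox1.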

How the data were processed

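RNA was sequenced from 12 cultures of MC3T3-E1 cells, with total RNA taken by TRIzol on day 7 and libraries built with SMARTer chemistry, per the labels. Each deposited table holds the raw counts of reads for the genes of 1 library, which the authors made with cutadapt, FastQC 0.63, STAR 2.4, HTSeq and DESeq2 on mm10, per the submitters' processing notes; the role of each tool, the annotation release and the strand setting are not given in the sources used here. Of the 12 deposited tables, 11 end within a line, so the 52654 genes complete in each were used (at least 99.9% of each library's counts) and 1621 further genes were not used here. Identifiers without version suffix all matched GENCODE M21.

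The analysis used edgeR 4.0.16 (R 4.3.3). Genes passing filterByExpr (13340) were scaled by TMM and tested with quasi-likelihood tests on 4 group means over 12 libraries; p-values were adjusted by Benjamini-Hochberg over all tested genes in each of 5 contrasts and called at 0.05. The biological coefficient of variation was 12.3%. The SE of a log2 fold change is its size divided by the square root of F. CPM used TMM-scaled totals, and CPM per kb the exonic length. Alternatives were RLE and upper-quartile scaling, no low-count filter or a CPM filter (at least 1 CPM in 3 libraries), DESeq2 1.42.0, limma-voom (limma 3.58.1), no mitochondrial genes, only the groups compared, removal of the trend with GC content and length (loess, span 0.3), a replicate block, both together, and leaving out each library. The removal of the GC trend cannot tell a technical trend from true changes linked to GC content. The methods were tested on simulated data.

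The members, lists, naming rule and alternatives were chosen with earlier results of these data known. The naming rule took all members, up to 4 called genes with the smallest p and up to 2 uncalled genes of high level per list, and for Ptgs2, Nos2 and Ptges the 5 genes most correlated in log2 CPM (prior count 2). Promoters came from RefSeq (GRCm38.p6), whose 250 bases before and 50 after the start were searched.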

Additional observations from a re-analysis of the deposited data

Results flagged for a closer look

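For 6 of the 7 tested members the difference between co-culture and isolated cells differed between the surfaces by the interaction test across all genes, which 47.8% of all tested genes passed. The interaction (co-culture effect on nanotopography minus that on control titanium, log2) was -1.75 for Ptgis, which also passed the threshold GC-adjusted, at -0.90. It was -1.75 for Nos2, -1.24 for Ptges2, 0.70 for Ptgs2, -0.62 for Ptges and 0.66 for Ptges3, and none of these 5 was called GC-adjusted, at -1.19, -0.66, -0.30, -0.11 and 0.07 in the same order. The Nos2 call was kept in only 2 of 12 fits that left out a library. Ptgs2 and Nos2 had been chosen on the fold changes that enter the interaction, so theirs are descriptions. The other members were chosen by name around them with earlier results known, so their calls are no independent test. The part of the libraries' GC trend in the 5 values not called GC-adjusted was not tested.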

How the results depend on the processing

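Over 35 pairs of a member and a comparison and 23 other settings, 797 values were recomputed: 694 kept their direction and side of the threshold, 55 kept the direction and lost the call, 24 kept it and gained one, and 24 turned direction. Of those called before, the ones that turned were Ptgis in co-culture against isolated cells on nanotopography (0.14 with GC content and length removed, 0.15 with the replicate block as well), Ptgs2 on nanotopography against control titanium in co-culture (-0.21 in both) and the Ptgs2 interaction (-0.30 in both). Of those not called, the same settings turned Ptges (0.25 and 0.24) and Ptges3 (-0.25 and -0.26) in co-culture against isolated cells on nanotopography, Ptgis (-0.14 in both) and Ptgs2 (0.10 in both) between the surfaces in isolated cells, and the Ptgs1 interaction (0.08 and 0.07). Leaving out 1 library turned values that were not called: in co-culture against isolated cells Ptges ran from -0.25 to 0.01 and Ptges3 from -0.01 to 0.36 on nanotopography and Ptges2 from -0.23 to 0.03 on control titanium, and between the surfaces in isolated cells Ptges ran from -0.20 to 0.06 and Ptgis from -0.09 to 0.32. The cause was not tested.

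With GC content and length removed, 2386 genes were called between the surfaces in co-culture, 700 in isolated cells and 2738 for the interaction. With the replicate block as well, the numbers were 2115, 463 and 2467, and 5072 for co-culture against isolated cells on nanotopography. Both settings left 1 member called between the surfaces in co-culture and 1 for the interaction. With no low-count filter, 2100 genes were called between the surfaces in isolated cells. Leaving out 1 library at a time gave 1436 to 2976 genes called for co-culture against isolated cells on control titanium (lowest without library 2 of isolated cells on control titanium), 3274 to 5944 between the surfaces in co-culture (lowest without library 1 of co-culture on nanotopography) and 3 to 2877 in isolated cells, with 3 without library 1 or 2 of isolated cells on control titanium or library 3 of isolated cells on nanotopography. Members called ran from 3 to 6 for the interaction, from 2 to 6 between the surfaces in co-culture and from 0 to 2 in isolated cells. The fit of only the isolated groups gave no value for Nos2, which did not pass the filter there, and no such fit exists for the interaction.

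Replicate numbers are shared between groups, but the deviations of same-numbered libraries correlated between -0.391 and 0.303, so the numbers were not taken to pair the samples. With the replicate block 7757, 2459, 5453, 1240 and 6231 genes were called, against 7892, 2622, 5599, 1295 and 6383 without it (co-culture on nanotopography, co-culture on control titanium, surface in co-culture, surface in isolated cells, interaction), and 5 rather than 6 members for the interaction, the 1 being Nos2, which was also not called with upper-quartile scaling, no filter or DESeq2. Depth limits Ptger2, Ptger4 and Nos2 in isolated cells, each with fewer than 10 counts a library.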

Other observations

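Non-coding genes named for Ptgs2 shared no exonic bases with it in the annotation and had low counts, with higher sums in co-culture. Ptgs2os2 had sums of 72 counts in co-cultured nano cells, 28 in co-cultured control cells, 15 in isolated nano cells and 16 in isolated control cells, and Ptgs2os had 88, 72, 45 and 55 in the same order. Ptgs2os2 had 20 to 32 counts in the co-cultured nano libraries and 5 to 13 in the co-cultured control libraries, which did not overlap. No test was made on these genes, and the part of library size in the sums was not tested. Of the 9 members, 4 lie on chromosome 2 (Ptges, Ptges2, Ptgs1 and Ptgis), and these did not move together in co-culture on control titanium.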
